A study of Hydrangea macrophylla with 27 samples.

Results

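The subject is a small group of wall enzymes in stems of Hydrangea macrophylla, the xyloglucan endotransglucosylase/hydrolases (XTHs) whose best Swiss-Prot match is XTH22, XTH23 or XTH32 of Arabidopsis. Members were the assembled transcript clusters with exactly 1 of these 3 gene names, selected on a total of at least 100 expected counts over all 27 libraries, and the names were chosen with results of these data known, those of bent against unbent stems at 1 h among them. Of 142016 clusters, 8 met both conditions, namely 1 with the name XTH22, 4 with XTH23 and 3 with XTH32. No cluster with these names fell below the total. The lowest total inside the limit was 110, in the XTH23 cluster Cluster-33607.0. All clusters with an XTH match numbered 31, so 23 carried other XTH names.

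Xyloglucan is the main hemicellulose that ties cellulose microfibrils together in the growing walls of most flowering plants. XTH enzymes cut a xyloglucan chain and either join the cut end to another chain or, in some members, release it by hydrolysis, and so they can loosen, rebuild or stiffen a wall. In Arabidopsis, XTH22 is the touch gene TCH4, whose transcript is known to accumulate quickly after touch, wind, temperature shifts and brassinosteroid, XTH23 is a close relative of it, and XTH32 belongs with XTH31 to a subgroup known for hydrolase activity.

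The plants were wild-type 'Wudu' hydrangeas, grown as potted micro-cuttings in a chamber with 16 h of light per day, and RNA was taken from whole stems. The 9 groups of 3 libraries each were untreated stems collected 15 min before bending, and bent or unbent stems collected 1, 3, 24 and 72 h after it, where the labels leave unsaid if the first or the last of the bendings is hour 0. Bending was done on 1 morning between 9 and 10 a.m., as 12 passes of a plastic curtain that held the stems 30° from the vertical for about 30 s, and the unbent stems of each time were the controls. The labels do not say how many plants made up a sample, so p-values measure the spread between these samples. No genome was used, and a whole stem mixes cell types, so that fewer cells of a type and less RNA per cell cannot be told apart.

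The libraries held 14.4 M to 23.1 M expected counts in total (median 17.2 M). Ribosomal RNA took 2.69% to 8.45% of the counts and was highest in replicate 2 before bending, at 8.45%, followed by replicate 2 of bent stems at 1 h, at 6.97%, and at 3 h, at 5.74%. Whether the numbers of members called moved without these 3 libraries is stated with the processing alternatives. Markers of xylem, phloem, epidermis, and cambium and meristem were all detected, and their summed levels overlapped between bent and unbent stems at 3 h. Single markers did pass the threshold there. Of 22 xylem markers tested, 2 were higher in bent stems and 0 lower, and of 19 for cambium and meristem 1 was higher and 2 lower. For phloem 0 of 9 passed and for epidermis 0 of 13. Of all clusters, 3.05% were higher and 2.03% lower. Green-tissue markers, the chlorophyll-binding and Rubisco small-subunit clusters, did not overlap at 3 h, with sums of 4093 to 4558 counts scaled to library size (CPM) in bent and 4907 to 5465 CPM in unbent stems; 7 of 29 tested were lower in bent stems and 0 higher. Clusters matching the plant virus Hydrangea ringspot virus summed to 23780 to 34940 CPM in bent and 38140 to 58680 CPM in unbent stems at 3 h, with 0 of 30 past the threshold by edgeR and 10 at an unadjusted p under 0.05. The part of these shifts in the values below was not tested.

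Names separated XTH32 from the others but did not separate XTH22 from XTH23. The XTH22 cluster, Cluster-9242.33400 (1719 bases), had a tea XTH23 as its best match among plant proteins at large, while the XTH23 cluster with the highest total, Cluster-9242.33401 (3056 bases), carried the orthology name TCH4. The XTH23 cluster Cluster-9242.2417 (2430 bases) had a grapevine XTH22 as its best protein match, and Cluster-33607.0 (1235 bases) an XTH22-like tea protein. The remaining XTH23 cluster was Cluster-9242.57903 (2547 bases), and the XTH32 clusters were Cluster-9242.28530 (3024 bases), Cluster-9242.28531 (2064 bases) and Cluster-9242.102310 (1356 bases). All 8 held the glycosyl hydrolase family 16 domain and the XTH C-terminal domain. Cluster-9242.33401 also carried an argininosuccinate synthase domain and a C1 domain, and Cluster-9242.33400 a lipopolysaccharide assembly domain, which are foreign to this family. Non-whole expected counts, the mark of reads divided between clusters, occurred in 8 of 27 libraries for Cluster-9242.33400, 9 for Cluster-9242.33401, 16 for Cluster-9242.28530, 20 for Cluster-9242.28531 and 14 for Cluster-9242.102310, and in 0 for the other 3. Values of these 5 are therefore uncertain to the extent that reads were split among near-identical copies. Counts of Cluster-9242.33400 in unbent stems at 1 h were 394.67, 446.89 and 640.82, and those of Cluster-9242.33401 were 647.33, 642.11 and 907.18. In each library their fractions completed each other, as when reads are divided between the pair. The same was seen in replicates 1 and 2 of bent stems at 1 h for Cluster-9242.28530 (145.36 and 106.99) and Cluster-9242.28531 (176.64 and 184.01).

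Levels are given below as FPKM, in which fragment counts are divided by transcript length and library size, so that clusters can be set side by side. The XTH22 cluster stood at 2.34, 1.99 and 8.05 FPKM before bending. At 1 h it stood at 185, 116 and 78.2 FPKM in bent stems against 18.9, 19.8 and 24.8 FPKM in unbent stems. The lowest bent library lay far above the highest unbent one, and the unbent stems in turn lay above all 3 libraries taken before bending, with a mean ratio of 5.13. The share of all clusters with this gap between unbent stems and those before bending is not given. By 3 h the levels were 6.08, 1.86 and 1.76 FPKM in bent and 1.49, 1.21 and 1.02 FPKM in unbent stems. Bent libraries were still above unbent ones, but they overlapped the range before bending. At 24 h it was down to 0.52, 0.34 and 0.60 FPKM in bent and 0.24, 0.30 and 0.29 FPKM in unbent stems, and at 72 h to 0.32, 0.32 and 0.31 against 0.42, 0.33 and 1.16 FPKM. In the order of its 9 group means, bent 1 h, unbent 1 h and before bending came first without overlap between neighbours. Bent stems at 3 h followed and overlapped those before bending.

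**Figure D1:**
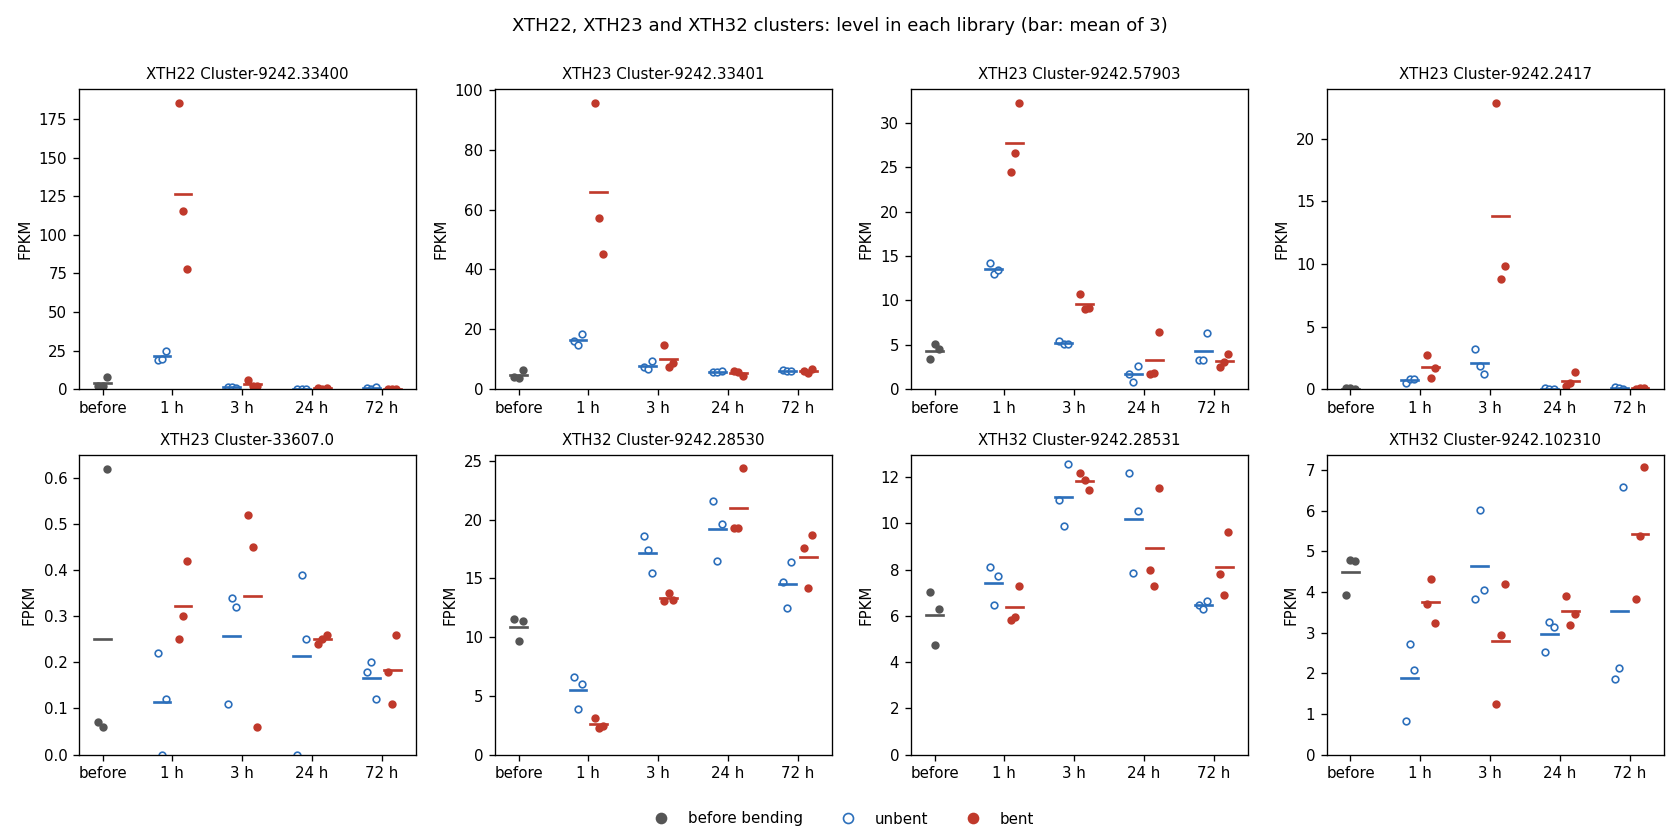
Level of each of the 8 clusters in FPKM (linear axis from 0, its range set per panel) before bending and at each sampling time, with filled grey points for stems before bending, open blue points for unbent and filled red points for bent stems, 1 point per library and a bar at the mean of 3. XTH22 and 2 XTH23 clusters are highest in bent stems at 1 h, Cluster-9242.2417 is highest in bent stems at 3 h, and the XTH32 cluster Cluster-9242.28530 is lowest in bent stems at 1 h.

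The leading XTH23 cluster, Cluster-9242.33401, had the same high point but returned to a steady level instead of falling below its start. It stood at 4.04, 3.60 and 6.32 FPKM before bending, and at 1 h at 95.6, 57.2 and 45.0 FPKM in bent against 16.2, 14.8 and 18.3 FPKM in unbent stems. At 3 h it stood at 14.75, 7.31 and 8.59 FPKM in bent and 7.52, 6.65 and 9.39 FPKM in unbent stems. From 24 h on, all 12 libraries, bent or unbent, lay between 4.52 and 6.68 FPKM. Within bent stems at 1 h, replicate 1 was the highest library for XTH22, for Cluster-9242.33401 and for Cluster-9242.2417, but the lowest for Cluster-9242.57903. That cluster stood at 24.5, 26.5 and 32.2 FPKM in bent and 14.2, 13.0 and 13.4 FPKM in unbent stems at 1 h, against 3.36, 5.09 and 4.52 FPKM before bending. It kept a gap at 3 h, at 10.7, 9.00 and 9.16 FPKM in bent and 5.37, 5.07 and 5.13 FPKM in unbent stems, and the groups overlapped at 24 and 72 h.

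Cluster-9242.2417 followed a later course than the other XTH23 clusters. It was close to absent before bending, at 0.06, 0.06 and 0.03 FPKM, which rested on 2, 2 and 1 counts. At 1 h it stood at 2.74, 0.91 and 1.70 FPKM in bent and 0.52, 0.80 and 0.83 FPKM in unbent stems. Its high point was 3 h, at 22.8, 8.81 and 9.84 FPKM in bent and 3.19, 1.84 and 1.2 FPKM in unbent stems, with no overlap. At 24 h bent stems still held 0.22, 0.45 and 1.38 FPKM while unbent stems held 0.07, 0.04 and 0.00 FPKM, and at 72 h no library exceeded 0.14 FPKM. The fourth XTH23 cluster, Cluster-33607.0, stayed between 0.00 and 0.62 FPKM with 0 to 11 counts per library. It was the member that did not pass the filter on low counts and was not tested.

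The XTH32 clusters followed courses of their own. The leading XTH32 cluster, Cluster-9242.28530, stood at 11.5, 9.70 and 11.4 FPKM before bending and at 1 h at 3.13, 2.26 and 2.43 FPKM in bent against 6.57, 3.90 and 6.03 FPKM in unbent stems. The bent libraries were lowest and the unbent ones lay between. Neither overlapped the libraries before bending, a gap whose share over all clusters is not given. Bent libraries all below unbent ones were seen in 8.19% of all tested clusters at 1 h. At 3 h it was back to 13.1, 13.8 and 13.2 FPKM in bent and 18.6, 17.4 and 15.4 FPKM in unbent stems, again with the bent group lower, and at 24 h it held its highest means, 21.0 ± 2.96 and 19.2 ± 2.60 FPKM (SD, n = 3). Cluster-9242.28531 overlapped between the same 3 groups, at 6.37 ± 0.820 FPKM in bent and 7.42 ± 0.861 FPKM in unbent stems at 1 h against 6.02 ± 1.15 FPKM before bending, and each neighbouring pair in the order of its 9 group means overlapped. Neighbouring pairs in that order also overlapped for Cluster-9242.102310, whose libraries ranged from 0.83 to 7.07 FPKM. At 1 h this last cluster stood at 3.71, 4.32 and 3.24 FPKM in bent and 0.83, 2.72 and 2.07 FPKM in unbent stems, so that its bent libraries were higher, opposite to Cluster-9242.28530. Before bending it stood at 3.92, 4.79 and 4.76 FPKM, so its unbent stems were lower at 1 h, as in Cluster-9242.28530. For this gap, too, the share over all clusters is not given.

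The contrast at 1 h was known when the members were chosen, so its values are a description without a test. On the log2 scale, the differences of bent against unbent stems (± SE) were 2.64 ± 0.40 for XTH22, and for the XTH23 clusters 2.07 ± 0.27 in Cluster-9242.33401, 1.36 ± 0.59 in Cluster-9242.2417 and 1.09 ± 0.35 in Cluster-9242.57903. For XTH32 they were -1.02 ± 0.18 in Cluster-9242.28530, -0.16 ± 0.16 in Cluster-9242.28531 and 1.05 ± 0.46 in Cluster-9242.102310. With the 3 XTH32 clusters summed, the difference was -0.37, a smaller difference than that of Cluster-9242.28530 alone.

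**Figure D2:**
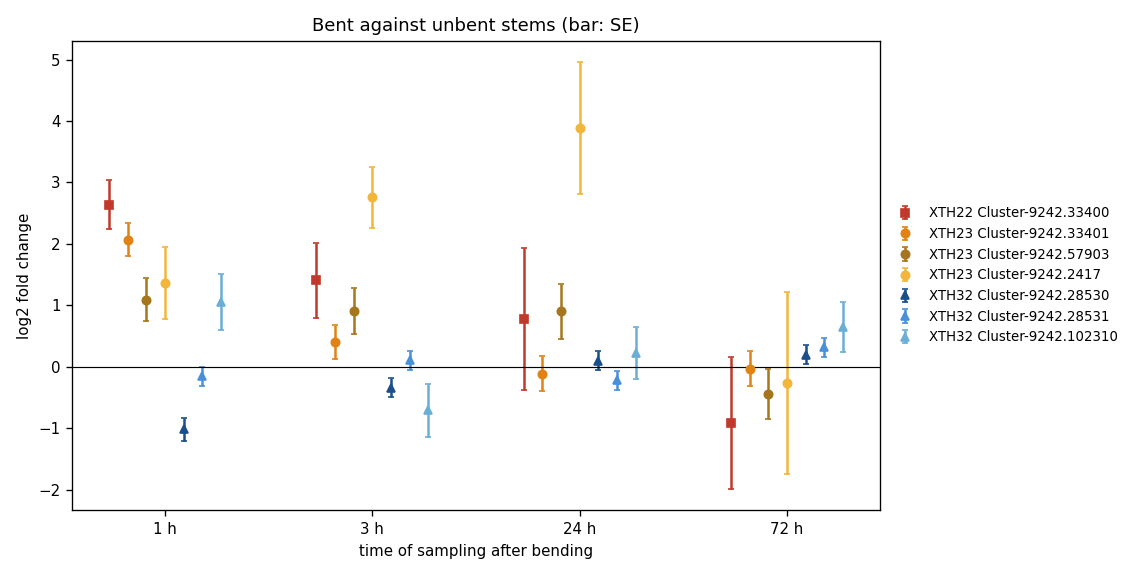
Difference between bent and unbent stems as a log2 fold change (vertical axis) at 1, 3, 24 and 72 h for the 7 tested clusters, with SE bars from the model of all 27 libraries; squares are XTH22, circles XTH23 and triangles XTH32. At 3 h Cluster-9242.2417 stands at 2.76 ± 0.50, and at 72 h the 7 values lie between -0.92 and 0.65.

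At 3 h, 1 of the 7 tested members passed the quasi-likelihood test of edgeR, adjusted over all tested clusters by the Benjamini-Hochberg method, and 5.08% of all clusters did (3.05% higher and 2.03% lower in bent stems). This was Cluster-9242.2417, which rose by 2.76 ± 0.50 on the log2 scale (adjusted p = 0.00189 in edgeR). Without replicate 1 of the bent stems, its highest library, the change was 2.17 with an adjusted p of 0.0201 in edgeR, and in a fit of only the 6 libraries compared it was 2.75 with an adjusted p of 0.115. XTH22 differed by 1.41 ± 0.61 (adjusted p = 0.256 in edgeR) and Cluster-9242.57903 by 0.91 ± 0.37 (adjusted p = 0.218 in edgeR), neither of which passed. Without replicate 1 of the bent stems the difference of XTH22 was 0.56 (adjusted p = 0.828 in edgeR). Cluster-9242.57903 did pass, at 0.89, in the fit of only the groups compared (adjusted p = 7.31e-05 in edgeR). Both had bent libraries all above the unbent ones, as did Cluster-9242.2417, a pattern shared by 11.3% of all tested clusters at 3 h. Cluster-9242.28530 had all bent libraries below the unbent ones, as did 9.49% of clusters, and differed by -0.34 ± 0.16 (adjusted p = 0.278 in edgeR). It passed when no filter on low counts was applied, at -0.34 (adjusted p = 0.0346), and with only the groups compared, at -0.35 (adjusted p = 0.0165). Differences of Cluster-9242.33401, Cluster-9242.28531 and Cluster-9242.102310 were 0.40 ± 0.28, 0.10 ± 0.15 and -0.71 ± 0.43, and did not pass. With its 4 clusters summed, XTH23 was higher in bent stems by 1.09 (adjusted p = 0.00761 in edgeR). Replicate 1 of bent stems at 3 h, the highest of its group for XTH22, Cluster-9242.33401, Cluster-9242.57903 and Cluster-9242.2417, also held the most counts matching thrips, plant-feeding insects, at 162 CPM against 18.8 and 20.7 CPM in the other bent libraries. Among unbent stems at 3 h, replicate 3 held the most thrips matches, at 89.8 CPM. It was the lowest of its group for XTH22 and Cluster-9242.2417, between for Cluster-9242.57903 and the highest for Cluster-9242.33401. Over all libraries thrips matches were highest in replicate 2 of bent stems at 24 h, at 649 CPM. That library was the lowest of its group for XTH22, at 0.34 FPKM, and between for these XTH23 clusters. The part of thrips in the members' levels was not tested.

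At 24 h, 0 of the 7 passed, against 0.0246% of all clusters, and 1 had an unadjusted p under 0.05 in edgeR. That was Cluster-9242.2417, with an unadjusted p of 0.00189 in edgeR. Its log2 difference was 3.89 ± 1.07 (adjusted p = 0.364 in edgeR), from 10, 16 and 48 counts in bent and 3, 2 and 0 counts in unbent stems. DESeq2 called it, at 4.07 (adjusted p = 0.0114). Limma-voom called 0 of the 7. At 72 h, 0 of the 7 passed in edgeR, limma-voom or DESeq2, and 0 had an unadjusted p under 0.05 in edgeR, where the lowest was 0.0544 in Cluster-9242.28531. Of all clusters, 0% passed. The log2 difference of XTH22 there was -0.92 ± 1.07, at 7 to 9 counts in bent and 10 to 29 counts in unbent libraries. Without unbent replicate 3, its highest library there, the difference was -0.25 (unadjusted p = 0.846 in edgeR). Epidermis markers also did not overlap at 72 h, with sums of 95.5 to 135 CPM in bent and 137 to 167 CPM in unbent stems, and their part was not tested. An F test of whether the bending effect differed between 3, 24 and 72 h called 1.65% of all clusters and 0 of the 7 members. Of these, 1 had an unadjusted p under 0.05 in edgeR, Cluster-9242.57903 at 0.0458 (adjusted p = 0.423). XTH22 libraries did not overlap at any time, with bent libraries higher at 1, 3 and 24 h and lower at 72 h, which 8.39%, 11.3%, 5.92% and 5.22% of all tested clusters did at these times in that direction.

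Unbent stems also changed over the experiment. Over stems before bending and unbent stems of 3, 24 and 72 h, an F test called 5 of the 7 members, with 21.1% of all clusters called. They were Cluster-9242.28531 (adjusted p = 1.19e-05), Cluster-9242.2417 (2.80e-05), XTH22 (0.00229), Cluster-9242.28530 (0.00253) and Cluster-9242.57903 (0.0432), all in edgeR's quasi-likelihood test. The last was lost in 7 of the 12 fits that left out 1 library, with an adjusted p of up to 0.203 without replicate 2 of unbent stems at 24 h. In limma-voom, XTH22 (adjusted p = 0.412) and Cluster-9242.2417 (adjusted p = 0.234) did not pass. The comparisons in the next paragraph share the libraries before bending.

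At 3 h, unbent stems exceeded those before bending in 3 of 7 members, with 14.1% of all clusters called in either direction and 8.24% higher. Cluster-9242.2417 rose by 5.39 ± 0.92 on the log2 scale (adjusted p = 0.000346 in edgeR), an estimate that rests on the 2, 2 and 1 counts before bending. In limma-voom it did not pass, at 5.07 (adjusted p = 0.176). Cluster-9242.28530 rose by 0.68 ± 0.16 (adjusted p = 0.00440 in edgeR) and Cluster-9242.28531 by 0.92 ± 0.16 (adjusted p = 4.30e-05 in edgeR). XTH22 did not pass at 3 h, with a log2 change of -1.73 ± 0.60 (adjusted p = 0.0620 in edgeR). Its 3 unbent libraries lay below all those before bending, a gap whose share over all clusters is not given. XTH22 passed under the stricter filter (adjusted p = 0.0489), in DESeq2 (adjusted p = 0.0168), and without replicate 1 or 2 before bending (adjusted p = 0.0451 and 0.0337 in edgeR). Without replicate 3 before bending the change was -0.80 (adjusted p = 0.496 in edgeR). Cluster-9242.33401 did not pass at 3 h, at 0.78 ± 0.29 (adjusted p = 0.0879 in edgeR). It passed in DESeq2 (adjusted p = 0.0271), with only the groups compared (0.0120), on log2(FPKM + 0.1) in limma (0.0421) and without replicate 3 before bending (0.0452). At 24 h Cluster-9242.28530 and Cluster-9242.28531 were higher, by 0.82 ± 0.16 and 0.76 ± 0.16. The other XTH32 cluster, Cluster-9242.102310, did not pass, at -0.59 ± 0.43. XTH22 was lower, with a log2 change of -3.89 ± 0.78 (adjusted p = 0.00329 in edgeR). Thus 2 of 7 were higher against 4.66% of all clusters and 1 of 7 lower against 3.75%, with 8.4% called in all. Cluster-9242.57903 did not pass, at -1.36 ± 0.44 (adjusted p = 0.0644 in edgeR). It passed under the stricter filter (adjusted p = 0.0489), with the replicate block (0.0353), in limma-voom (0.0496), in DESeq2 (0.0141) and without unbent replicate 3 (0.0485). At 72 h XTH22 alone passed among the 7, at -2.78 ± 0.66 (adjusted p = 0.0103 in edgeR), against 10.3% of all clusters, or 4.76% counting only those lower. Cluster-9242.28530 did not pass, at 0.43 ± 0.16 (adjusted p = 0.0927 in edgeR). It passed, as higher, with no filter on low counts (adjusted p = 0.00184), with the replicate block (0.00853), with only the groups compared (0.00835) and in DESeq2 (0.0242). The level of XTH22 before bending was set by replicate 3, at 8.05 FPKM against 2.34 and 1.99 FPKM. Without it the change was -2.97 at 24 h (adjusted p = 0.0345 in edgeR) and -1.85 at 72 h (adjusted p = 0.114), where the call was lost. It was also lost at 72 h without unbent replicate 1, at -2.56 (adjusted p = 0.0562), and without unbent replicate 2, at -2.47 (adjusted p = 0.0509). In limma-voom XTH22 did not pass at 24 h, at -3.60 (adjusted p = 0.312), or at 72 h, at -2.74 (adjusted p = 0.249). With only the groups compared it did not pass at 72 h either (adjusted p = 0.124 in edgeR). Replicate 3 before bending also held the most thrips matches of its group, at 291 CPM against 45.9 and 45.5 CPM, and their part was not tested. Green-tissue markers moved over the same times, with 14 of 29 lower and 1 higher in unbent stems at 3 h and 13 higher and 0 lower at 24 h, each against before bending. Cambium and meristem markers did too, with 3 of 19 higher and 2 lower at 3 h, 3 higher and 0 lower at 24 h and 8 higher and 0 lower at 72 h. Their sums were 905 to 939 CPM before bending, and 1050 to 1091, 959 to 1003 and 1068 to 1130 CPM in unbent stems at 3, 24 and 72 h, none of which overlapped those before bending. The part of these markers was not tested.

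**Figure D3:**
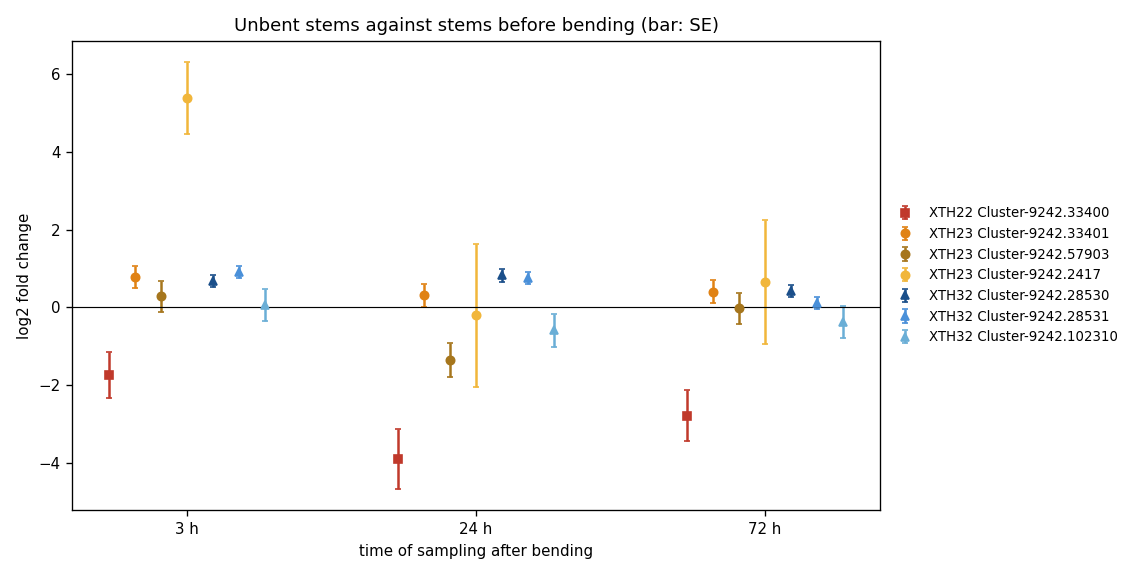
Change of unbent stems against stems before bending as a log2 fold change (vertical axis) at 3, 24 and 72 h, with SE bars, for the 7 tested clusters and the same symbols as for bending. At 24 h XTH22 is at -3.89 ± 0.78 while the XTH32 clusters Cluster-9242.28530 and Cluster-9242.28531 are at 0.82 ± 0.16 and 0.76 ± 0.16; the 3 comparisons share the libraries before bending.

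Stems of 24 h were collected on the next morning, at a similar hour to those of 1 h and those before bending. Unbent stems of 1 h held 21.2 ± 3.19 FPKM of XTH22 against 0.277 ± 0.0321 FPKM in unbent stems of 24 h, a ratio of 76.6. For Cluster-9242.57903 these levels were 13.5 ± 0.608 and 1.73 ± 0.880 FPKM, and for Cluster-9242.33401 they were 16.4 ± 1.75 and 5.79 ± 0.146 FPKM. The leading XTH32 cluster was at 5.50 ± 1.41 FPKM at 1 h and 19.2 ± 2.60 FPKM at 24 h. As the unbent stems of 1 h belong to the contrast known when the members were chosen, these ratios carry no test.

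Across the 27 libraries, log2 CPM of XTH22 ran alongside Cluster-9242.57903 (Pearson's r = 0.889) and Cluster-9242.33401 (r = 0.877), less with Cluster-9242.2417 (r = 0.457), and opposite to Cluster-9242.28530 (r = -0.919). Cluster-9242.28530 and Cluster-9242.28531, which share a name, had an r of 0.477. These coefficients are descriptions over libraries of 9 groups that differ in sampling time and in bending, whose parts in the spread were not separated. The part of reads divided between XTH22 and Cluster-9242.33401, and between Cluster-9242.28530 and Cluster-9242.28531, was not tested.

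Among 14077 clusters with a Swiss-Prot name and a mean of at least 5 CPM, the 5 most like XTH22 over the 27 libraries were AGP41, an arabinogalactan protein (r = 0.978), LYK5, a receptor-like kinase known in Arabidopsis for chitin perception (r = 0.977), a histidine protein methyltransferase (r = 0.972), AAE3, an oxalate-CoA ligase (r = 0.972), and the disease-resistance-like RPP8L2 (r = 0.972). AGP41 stood at 106 CPM in bent and 45.6 CPM in unbent stems at 1 h, and at 15.1 CPM before bending. Most like the leading XTH23 cluster were MEBL (r = 0.965), the formin FH5, which acts on actin (r = 0.960), QWRF2 (r = 0.959), GATL7, a galacturonosyltransferase-like protein (r = 0.959), and LLG1, a GPI-anchored protein (r = 0.959). Most like the leading XTH32 cluster were an endoglucanase 6 (At1g64390, r = 0.981), which belongs to a family acting on cellulose, BRH1, a brassinosteroid-responsive RING protein (r = 0.965), the expansin EXPB16 (r = 0.964), the chlorophyll-binding CAB1B (r = 0.957) and the kinase PBS1 (r = 0.954). The endoglucanase stood at 67.7 CPM in bent and 129 CPM in unbent stems at 1 h, against 248 CPM before bending. These rankings changed with the choices made: of the 15 clusters, 6 were still among the closest without bent stems at 1 h, 8 over group means and 3 by Spearman's rho.

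Measured against all 31 XTH clusters, the members were a small part of the summed FPKM. That sum was 2358 ± 195 FPKM in bent and 1958 ± 199 FPKM in unbent stems at 1 h, and 1058 ± 90.5 FPKM before bending, and a 355-base XTH9 cluster, Cluster-9242.55181, made up 55.9% to 73.4% of it by group. Over all 31 clusters the 8 members held 10.1% ± 3.62 (SD, n = 3) of the sum in bent stems at 1 h, 3.44% ± 0.520 in unbent stems at 1 h and 3.28% ± 0.413 before bending. At 3 h they held 2.58% ± 0.546 in bent and 2.71% ± 0.300 in unbent stems. Leaving that short cluster out, a choice made after its values were seen, the members held 24.9% ± 6.80 of the remaining FPKM in bent stems at 1 h, 10.0% ± 1.24 in unbent stems at 1 h and 7.84% ± 1.15 before bending. At 3 h the shares were then 9.70% ± 2.00 in bent and 8.36% ± 0.541 in unbent stems, so that the order of these means turned with this choice, and both differences lay within the spread between libraries. Of the remaining FPKM, XTH22 held 13.3% ± 5.00, the XTH23 clusters 10.2% ± 1.95 and the XTH32 clusters 1.37% ± 0.0906 in bent stems at 1 h. Before bending these shares were 0.902% ± 0.685, 2.11% ± 0.501 and 4.83% ± 0.331.

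Among the 23 other XTH clusters 18 were tested, and at 3 h 6 were higher and 1 lower in bent stems. Of all clusters, 3.05% were higher and 2.03% lower. The median log2 difference was 0.14 against 0.01 over all clusters. The lower one was an XTH31 cluster, Cluster-9242.102309, at -0.80 ± 0.23 (adjusted p = 0.0294 in edgeR). A cluster whose best match is a soybean XTH2, Cluster-9242.63463, rose by 1.51 ± 0.21, from 26.4 ± 1.32 to 75.0 ± 23.7 CPM (adjusted p = 0.000163 in edgeR). XTH33 rose by 1.02 ± 0.22, XTH8 by 0.68 ± 0.18 and the short XTH9 cluster by 0.58 ± 0.13. At 1 h, when 1.93% of all 52918 tested clusters were called (1.11% higher and 0.814% lower), 2 of the 18 were higher, Cluster-9242.63463 (1.40 ± 0.20) and XTH33 (0.92). At 24 and 72 h, 0 of the 18 passed in edgeR, with 3 and 1 at an unadjusted p under 0.05. Another soybean XTH2 match, Cluster-9242.8277, singled out after its values were seen, was listed at 0 FPKM before bending and stood at 32.6 ± 17.2 FPKM in bent and 3.39 ± 1.65 FPKM in unbent stems at 1 h, but did not pass (adjusted p = 0.0576 in edgeR).

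**Figure D4:**
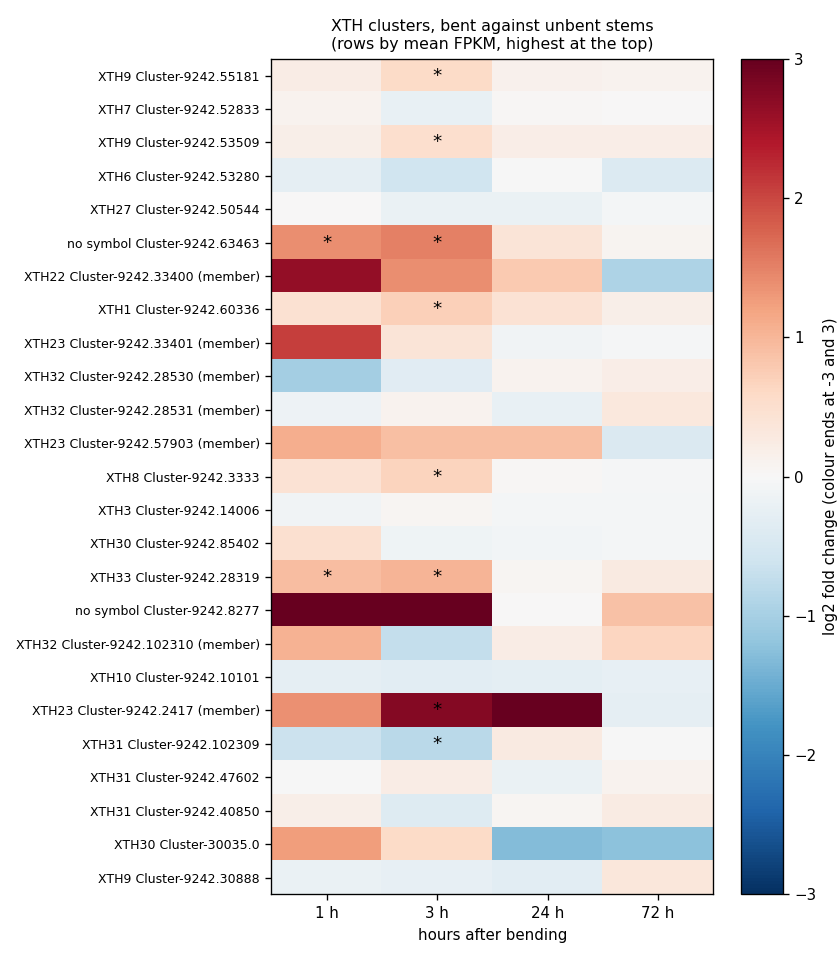
Bent against unbent stems for the 25 tested XTH clusters, 1 row each, ordered by mean FPKM with the highest at the top, as log2 fold changes at 1, 3, 24 and 72 h (colour, red for higher in bent stems). Asterisks mark an adjusted p under 0.05 in edgeR, and members carry none at 1 h because that contrast was not tested for them. At 3 h 1 member and 7 other clusters are marked.

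Genes that make and trim xyloglucan, and those of touch and brassinosteroid signalling, give the members' surroundings at 3 h. Of 28 tested clusters of xyloglucan synthesis and its sugar donors, 8 were higher in bent stems and 0 lower, where 3.05% of all 52918 tested clusters were higher and 2.03% lower, with a median log2 difference of 0.28. UXS6 (Cluster-9242.65868), which makes UDP-xylose, rose by 0.46 ± 0.08, the fucosyltransferase FT1, which decorates xyloglucan, by 0.37 ± 0.08, and UGD3, which makes UDP-glucuronic acid, by 0.57 ± 0.10. Of 7 clusters that trim xyloglucan, the alpha-xylosidase XYL1 alone passed, at 0.43 ± 0.12 (adjusted p = 0.0259 in edgeR). Of 39 calmodulin and calmodulin-like clusters, 2 were higher and 1 lower, with a median of 0.04. CML27 rose from 165 ± 72.3 to 389 ± 103 CPM (log2 change 1.24 ± 0.24), CCM1, a calmodulin, rose by 0.20 ± 0.05 and CML21 had a change of -0.48 ± 0.12.

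Of 45 tested clusters of brassinosteroid synthesis and signalling, 4 were higher and 1 lower at 3 h, where 5.08% of all clusters were called, with a median of -0.05. BZR2, a transcription factor of the pathway, rose from 69.8 ± 7.19 to 107 ± 3.92 CPM (log2 change 0.62 ± 0.08, adjusted p = 6.88e-07 in edgeR), and its relatives BEH2 and BEH4 rose by 0.29 ± 0.07 and 0.34 ± 0.09. CYP734A1, which inactivates brassinosteroids, went from 37.5 ± 6.96 to 22.8 ± 1.76 CPM, a log2 change of -0.72 ± 0.11 (adjusted p = 1.52e-05 in edgeR). Of 34 expansin clusters, which loosen walls without cutting them, 3 were higher and 10 lower, with a median of -0.27. At 24 and 72 h edgeR called 0 clusters of these 5 lists, with at most 4 of a list at an unadjusted p under 0.05. At 1 h, set against the same 1.11% higher and 0.814% lower among all clusters, the numbers were 6 higher and 0 lower for xyloglucan synthesis, 1 and 1 for its trimming, 5 and 0 for the calmodulins, 1 and 1 for brassinosteroid, and 2 and 11 for the expansins.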

How the data were processed

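Poly(A)-enriched stem RNA gave 150-base read pairs, per the labels' protocols. The authors deposited expected counts and FPKM values per assembled cluster with database matches. The submitters' processing notes name RSEM 1.2.28, and no source used here names the assembler. Of the count values, 8.05% were not whole (tolerance 0.005), and all were rounded before testing. Counts were fitted in R 4.3.3 with edgeR 4.0.16 (robust quasi-likelihood model, TMM scaling, filterByExpr on the 9 groups, 1 coefficient per group over 27 libraries; 52918 clusters kept; common biological coefficient of variation 0.158). Adjusted p-values are Benjamini-Hochberg values over all kept clusters, with a threshold of 0.05. CPM values are TMM-scaled, and likeness used log2 CPM with a prior count of 1. Members and lists were chosen with earlier results of these data known. The list patterns for xyloglucan synthesis, green tissue and phloem were corrected after annotation had been seen, which removed PP2A phosphatases among others. All members are named; of each other list, up to 4 clusters past the threshold at 3 h with at least 2 CPM were taken by smallest p. Lists were not tested as sets. Same-numbered libraries did not deviate together (r of -0.026 to 0.054). Alternatives used DESeq2 1.42.0, limma 3.58.1 (voom, and log2(FPKM + 0.1) and log2(FPKM + 1)), other filters and scalings, a replicate block, only the groups compared, names summed, and each library left out. The fits were tested on simulated data. Python 3.11.15 with pandas 2.3.3 and matplotlib 3.10.9 made summaries and figures.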

Additional observations from a re-analysis of the deposited data

Results flagged for a closer look

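The bent and unbent libraries of the XTH22 cluster, Cluster-9242.33400, did not overlap at any of the 4 times, and the side changed. Bent libraries were all above the unbent ones at 1, 3 and 24 h, with mean differences of 162, 3.03 and 0.287 CPM, and all below them at 72 h, by -0.462 CPM. The F test over 3, 24 and 72 h gave an adjusted p of 0.696 (0.196 unadjusted) in edgeR, so a difference between these times was not shown, and the difference that includes 1 h was not tested. Without scaling to library size, the counts were 16, 8 and 14 in bent and 7, 9 and 7 in unbent stems at 24 h, which overlap, and 8, 9 and 7 against 14, 10 and 29 at 72 h, where 9 and 10 counts mark the gap. Epidermis markers also lay lower in bent stems at 72 h, at 95.5 to 135 CPM against 137 to 167 CPM, and their part was not tested.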

How the results depend on the processing

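Of the members called, the number at 3 h in bent against unbent stems was 1, and 2 with no filter on low counts or with only the groups compared. At 24 h it was 0, and 1 in DESeq2. For unbent stems against before bending it was 3 at 3 h and 5 in DESeq2, and 1 at 72 h, against 2 with no filter, 2 with the replicate block, 2 in DESeq2 and 0 in limma-voom. The F test of the bending effect called 0, and 1 with no filter or on log2(FPKM + 1), and that of untreated stems called 5, and 3 in limma-voom. The replicate block moved no other count by over 1.5 times. Leaving out 1 library at a time gave 1 to 1 members at 3 h, 0 to 0 at 24 and at 72 h, 3 to 4 in unbent stems at 3 h and at 24 h, 0 to 2 at 72 h, 0 to 1 for the bending effect and 4 to 6 for untreated stems. Without the 3 libraries rich in rRNA, chosen after seeing the data, no count moved by over 1.5 times. Single calls did change there. XTH22 passed in unbent stems at 3 h against before bending (adjusted p = 0.0376 in edgeR). Cluster-9242.57903 was lost in the F test of untreated stems (adjusted p = 0.0872 in edgeR). Of the 15 most similar clusters, 3 were shared when ranked by Spearman's rho, 8 over group means and 6 without bent stems at 1 h. No direction reversed among called values. The causes were not tested. Counts with clusters of 1 name summed are not comparable and are not given. Levels under about 10 counts per library, as for Cluster-33607.0 and for Cluster-9242.2417 before bending, limit what could be seen.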
